A study of Mus musculus with 36 samples.

Results

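The data set ribosome-protected fragments (RPFs) from the pellet of a sucrose gradient against RPFs from fraction 5/6 of the gradient, in brains of FMR1 KO mice, in the low nuclease preparation. Its members are 6 of the 36 samples of the series, 3 libraries labelled Granule (the pellet) and 3 labelled Polysome (fraction 5/6), and they were chosen by these labels and not by a measured value. All 6 carry the FMR1-KO genotype, and each preparation pooled 10 whole brains taken at 5 days of age and was homogenized in a buffer with 2.5 mM MgCl2. The low nuclease preparation carries the label control and used a fixed amount of RNase I in the cold, while the standard nuclease preparation, labelled M-protocol, used 10 mM MgCl2 and an amount of RNase I scaled to the RNA at room temperature. Buffer and digestion therefore changed together between these preparations. The 3 replicates of a group received different linkers and were pooled before reverse transcription and amplification. Pellet and fraction 5/6 are thus 1 pool each, the pool and the fraction cannot be told apart, and the spread between replicates holds nothing from those later steps.

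A ribosome shields a short stretch of its mRNA from nuclease, so the RPF count of a gene reflects how many ribosomes a fraction holds on that mRNA. In the study the low nuclease RPFs were longer, with a smaller share in coding regions and weaker periodicity. Its later analyses drew on the standard nuclease RPFs alone. Dense clusters run furthest in a gradient, and the pellet is the fraction enriched in neuronal RNA granules, clusters of ribosomes paused in elongation that neurons can carry into their processes. Fraction 5/6 holds polysomes and clusters that do not pellet. FMRP, the product of Fmr1, is an RNA-binding protein found on polysomes and in such granules, and its mRNA targets include many long neuronal transcripts. A long coding region has room for more ribosomes than a short one, and mRNAs of secreted and membrane proteins are translated at the endoplasmic reticulum (ER).

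The pellet libraries held 27887425, 29078589 and 38758634 counts and the fraction 5/6 libraries 43399650, 62310787 and 40476710. Fmr1, disrupted in these mice, lay at 7.77, 8.47 and 8.43 CPM (counts scaled to a library of fixed size) in the FMR1 KO pellet and at 9.89, 7.62 and 6.49 CPM in FMR1 KO fraction 5/6, against 62.6 to 69.0 CPM and 90.7 to 106 CPM in the same fractions of WT. Cdk8 took 3.10% to 5.20% of the counts in these 6 libraries and 36.7% to 63.4% in the standard nuclease RPF libraries, and it was left out of the fits here for that reason. The neighbours Zfp740 and Csad, which overlap on opposite strands of chromosome 15, received nearly the same counts, 1.301% to 1.646% of each pellet library but 0.00337% and 0.00241% of fraction 5/6 replicate 2, so neither gene's own level is known and that library differed from the rest at this locus.

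Of 15580 protein-coding genes tested, 1451 were higher and 1665 lower in the pellet (edgeR quasi-likelihood test, Benjamini-Hochberg adjusted p under 0.05), 9.31% and 10.7% of the genes. The genes that rose included those of long proteins such as the cytoskeletal Map1a and Map1b, the motor Dync1h1 and the ubiquitin ligases Herc2, Hectd4 and Mycbp2, and those of adhesion molecules such as L1cam and Chl1. Those that fell included histones, ribosomal proteins, subunits of the respiratory chain and metallothionein Mt1, all with short coding regions. With the size factors of DESeq2 in place of TMM the counts were 1302 higher and 850 lower, and by library size alone they were 1155 and 4238, with the median gene moved by -0.19 on the log2 scale, so the balance of rises and falls rests on the scaling and all changes are relative to the median gene. The calls rest on all 3 preparations as well. Without replicate 3 of both groups no gene passed (edgeR quasi-likelihood test, 3625 genes at an unadjusted p under 0.05), without replicate 2 there were 5 rises and 4 falls, and without replicate 1 there were 489 rises and 32 falls. Each main call that could be tested kept its direction in each of these settings. These settings refit the same libraries or a part of them, so a kept direction is no independent support.

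The change followed coding length. In the 1496 genes with coding regions under 500 nt the median log2 enrichment, that is log2 of pellet over fraction 5/6, was -0.58, and it was -0.32, -0.03, 0.31 and 0.72 in the bins from 500, 1000, 2000 and 4000 nt and 1.03 in the 186 genes with 8000 nt or more. In the shortest bin 13 genes rose and 594 fell, and in the longest 119 rose and 2 fell, against 9.31% and 10.7% of all genes tested. The genes that rose had a median coding region of 3291 nt, those that fell 612 nt and those not called 1386 nt. Of the 1663 falls with a known coding length 1311 were under 1000 nt and 352 were longer, among them Dnah17, an axonemal dynein of 13377 nt, at 3.47, 6.94 and 4.94 CPM in the pellet against 12.8, 15.2 and 18.3 CPM (-1.59 ± 0.28, adjusted p = 0.0211). Across genes, Spearman's rho of log2 enrichment was 0.60 with coding length, 0.48 with transcript length, 0.13 with the length of the 3′ untranslated region, 0.05 with that of the 5′ untranslated region and -0.24 with the GC content of the coding region (15555 genes, which share the same 6 libraries and are not independent).

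**Figure D1:**
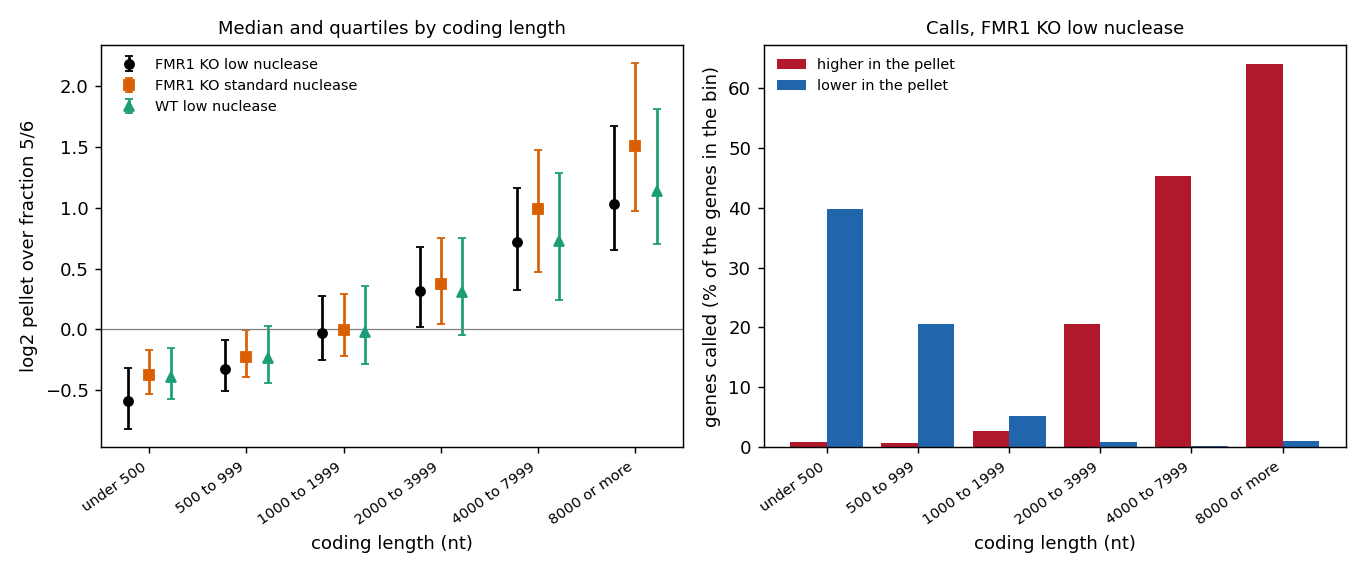
Left, median log2 pellet over fraction 5/6 with the lower and upper quartile (bars) for genes grouped by coding length (nt), in FMR1 KO low nuclease, FMR1 KO standard nuclease and WT low nuclease RPFs. Right, the percentage of the genes of each bin called higher or lower in the FMR1 KO low nuclease comparison, where falls go from 39.7% in the shortest bin to 1.08% in the longest and rises from 0.869% to 64.0%.

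The same trend could be read in each library. The mean log2 level of 993 genes with at least 4000 nt of coding sequence, minus that of 4095 genes under 1000 nt, was 1.62, 1.51 and 1.35 in the pellet replicates 1, 2 and 3 and 0.22, 0.39 and 0.37 in those of fraction 5/6. No pellet library overlapped a fraction 5/6 library. The difference between the fractions was 1.16 (two-sided exact permutation test, p = 0.10, which is the smallest that 3 against 3 libraries allow). In the standard nuclease preparation of FMR1 KO this difference was 1.21 and in the low nuclease preparation of WT it was 1.12. Neither differed from 1.16 beyond the spread between libraries (-0.05, exact permutation p = 0.76, for the preparation and 0.05, p = 0.795, for the genotype, with the smallest possible p at 0.005).

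**Figure D2:**
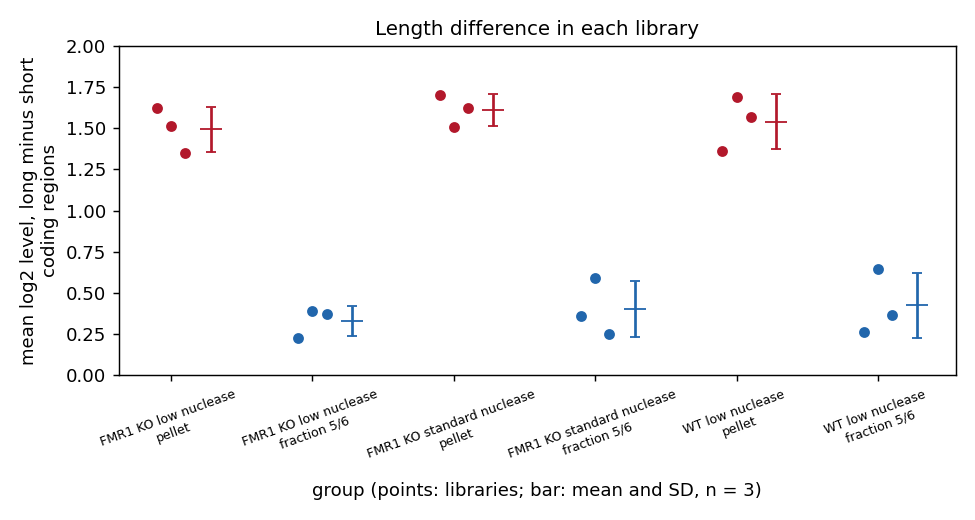
Mean log2 level of genes with at least 4000 nt of coding sequence minus that of genes under 1000 nt, for each RPF library (points) with the group mean and SD (bars, n = 3). All pellet libraries of the 3 sets lie at 1.35 or above and all fraction 5/6 libraries at 0.646 or below.

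Several of the largest rises with even replicates were in mRNAs of very long proteins, although the 186 genes of 8000 nt or more gave only 119 of the 1451 rises and 718 came from the bin that starts at 2000 nt. Map1a, the heavy and light chain precursor of a microtubule-associated protein (chromosome 2, ENSMUSG00000027254, 8328 nt of coding sequence), was at 1051, 859 and 969 CPM in the pellet and at 149, 173 and 161 CPM in fraction 5/6, a log2 enrichment of 2.58 ± 0.14 (SE, adjusted p = 0.00415). Its relative Map1b, a leading protein of growing axons (chromosome 13), was at 12162, 7462 and 8023 CPM against 2145, 1389 and 1513 CPM, an enrichment of 2.45 ± 0.33 (adjusted p = 0.0125). For both genes the lowest pellet library was more than 3 times the highest fraction 5/6 library. Of 32 tested microtubule-associated proteins 8 rose and 2 fell, against 9.31% and 10.7% of all genes, with a median of 0.21, and 7 to 10 rose and 0 to 5 fell over the alternatives of scaling, filter and model. The crosslinker Macf1, whose coding region of 22059 nt is longer than that of Map1a, had 179, 163 and 165 CPM against 98.6, 109 and 101.98 CPM (0.71 ± 0.09, adjusted p = 0.0117). Clip1, which tracks growing microtubule ends, had an enrichment of 0.70 ± 0.09 (adjusted p = 0.0117).

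Dync1h1, the heavy chain of cytoplasmic dynein (chromosome 12, coding length 13932 nt), was at 714, 525 and 537 CPM in the pellet and 99.98, 108 and 94.4 CPM in fraction 5/6, an enrichment of 2.55 ± 0.17 (adjusted p = 0.00415). Kif5a, a kinesin heavy chain of neurons, was at 1087, 833 and 788 CPM against 279, 287 and 309 CPM (1.63 ± 0.17, adjusted p = 0.00804), and Kif1a, which carries synaptic vesicle precursors, had an enrichment of 1.15 ± 0.19 (adjusted p = 0.0191). In the list of kinesins and dyneins 8 of 25 members rose and 4 fell, against 9.31% and 10.7% of all genes, and the lowest member was at -1.01. Of the spectrins and ankyrins, the membrane skeleton, 5 of 10 rose and none fell (edgeR), among them Sptbn1 with 332, 312 and 361 CPM against 175, 144 and 159.5 CPM (1.07 ± 0.12, adjusted p = 0.00926). The most abundant of them, Sptan1, had uneven libraries, 1996, 729.8 and 1156 CPM against 941, 186 and 339.9 CPM, and its 1.40 ± 0.68 did not pass (adjusted p = 0.19).

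**Figure D3:**
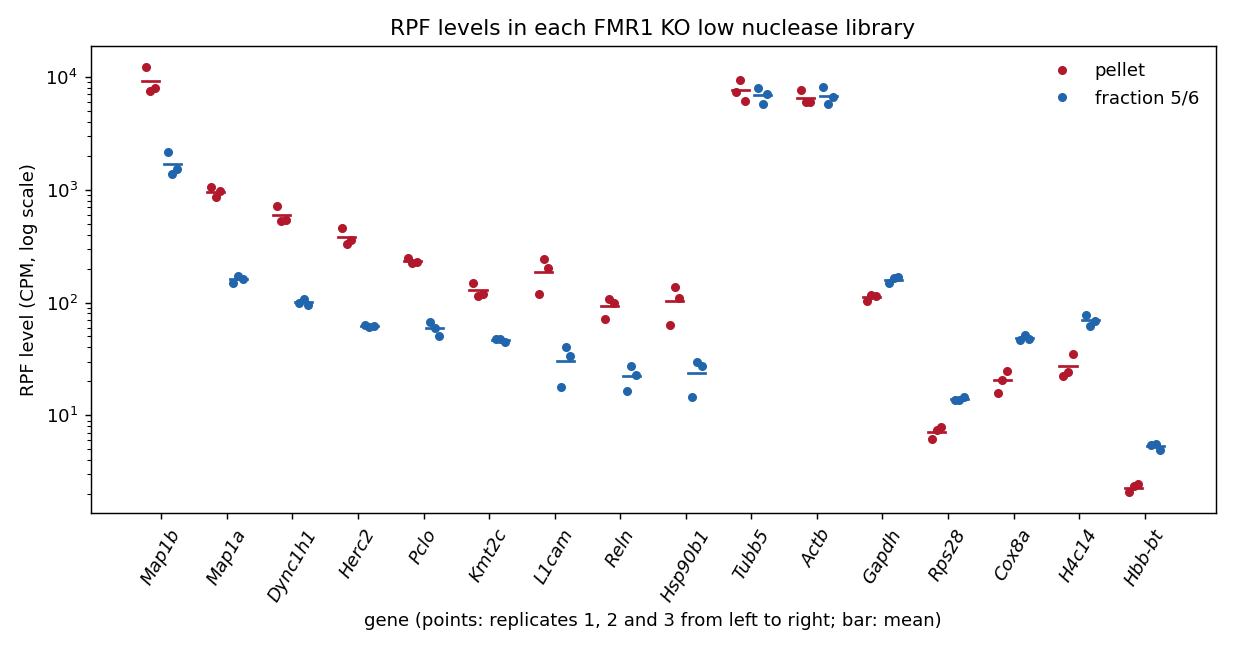
RPF level in CPM (log scale) of 16 genes in each of the 6 FMR1 KO low nuclease libraries, replicates 1 to 3 from left to right within a fraction, with bars at the group means. The pellet lies above fraction 5/6 from Map1b to Hsp90b1, overlaps it for Tubb5 and Actb and lies below it from Gapdh to Hbb-bt.

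Herc2, a giant ubiquitin ligase (chromosome 7, coding length 14508 nt) was at 457, 332 and 358 CPM in the pellet and at 62.7, 61.2 and 61.8 CPM in fraction 5/6, an enrichment of 2.63 ± 0.15 (adjusted p = 0.00415). Herc1, Hectd4, Mycbp2 and Ubr4, further ubiquitin ligases, named here from the largest rises and not from a list, with coding regions of 13254 to 15540 nt, had enrichments of 2.53, 2.62, 2.51 and 2.46 with SEs of 0.14 to 0.20. The scaffold Trrap of histone acetyltransferase complexes was at 314, 248 and 263 CPM against 49.8, 51.8 and 54.5 CPM (2.40 ± 0.13), and the DNA repair kinase Prkdc at 50.3, 34.3 and 40.5 CPM against 6.85, 5.44 and 8.29 CPM (2.60 ± 0.22). Among 40 chromatin remodelers and modifiers 19 rose and none fell (edgeR), against 9.31% and 10.7% of all genes, with a median of 0.65. The histone methyltransferases Ash1l and Kmt2c had enrichments of 1.89 ± 0.14 and 1.45 ± 0.12 (adjusted p = 0.00415 and 0.00474), and the remodeler Smarca4, at 0.63 ± 0.17, missed the threshold (adjusted p = 0.0534) but passed under 5 of 10 alternatives (adjusted p from 0.0101 to 0.078). Only 18 of the 40 lay above the median of their own length bin.

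Pclo, the giant scaffold piccolo of the presynaptic active zone, was at 246, 224 and 227 CPM in the pellet and 67.1, 59.7 and 50.5 CPM in fraction 5/6 (1.98 ± 0.13, adjusted p = 0.00415), and its partner Bsn (bassoon) had an enrichment of 1.35 ± 0.10 (adjusted p = 0.00415). Unc13a, which primes vesicles, was at 1.25 ± 0.16 (adjusted p = 0.0117). Of 37 genes of the synaptic vesicle cycle 6 rose and 3 fell, against 9.31% and 10.7% of all genes, and over the alternatives 5 to 15 rose and 1 to 8 fell. Of 28 postsynaptic scaffolds and kinases 8 rose and none fell (edgeR), with 7 to 12 rises and 0 to 1 falls over the alternatives, led by Cyfip1, a partner of FMRP in translational control, with 187, 153 and 160.2 CPM against 57.9, 52.5 and 70.8 CPM (1.47 ± 0.15, adjusted p = 0.0075). Camk2b, the most abundant postsynaptic kinase of the list, had 0.11 ± 0.13 (adjusted p = 0.571). Htt, the huntingtin gene, had an enrichment of 1.98 ± 0.11 (adjusted p = 0.00415).

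In the translation factors 5 of 38 rose and 6 fell, shares not far from the 9.31% and 10.7% of all genes. Eif3a, the largest subunit of the initiation factor eIF3, was at 442, 308 and 316 CPM in the pellet and 93.8, 65.1 and 84.4 CPM in fraction 5/6 (2.13 ± 0.21, adjusted p = 0.00722), the cap-complex scaffolds Eif4g1 and Eif4g3 had 1.11 ± 0.13 and 0.78 ± 0.13, and the elongation factor Eef2 0.76 ± 0.19 (adjusted p = 0.0405). The call of Eef2 was lost under 1 of 10 alternatives (adjusted p = 0.0608) and in all 9 fits with a library or a replicate left out. In the proteasome, 1 of 31 rose and 8 fell. The member that rose was Psmd1, the largest base subunit, at 439, 309 and 332 CPM against 149, 99.4 and 146.7 CPM (1.45 ± 0.22, adjusted p = 0.0161), while the core subunit Psmb1, at 126, 123 and 142 CPM against 211, 182 and 183 CPM, fell by 0.56 on the log2 scale (adjusted p = 0.0256). By library size alone 24 proteasome genes and 21 translation factors fell, so the number of falls in these lists rests on the scaling. Of 21 chaperones 5 rose and 1 fell, with 3 to 8 rises and 1 to 5 falls over the alternatives of scaling, filter and model. Cct8 of the cytosolic chaperonin rose (0.95 ± 0.18, adjusted p = 0.0244), and Hspe1, the small mitochondrial co-chaperonin, fell by 0.85 (adjusted p = 0.0251).

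Of 78 cytosolic ribosomal proteins none rose and 55 fell (edgeR), against 9.31% and 10.7% of all genes, with a median of -0.69. In 65 of them all pellet libraries lay below all fraction 5/6 libraries, which held for 26.3% of all genes. Rps28, one of the smallest ribosomal proteins, was at 6.22, 7.42 and 7.89 CPM in the pellet against 13.7, 13.8 and 14.6 CPM (-0.97 ± 0.13, adjusted p = 0.0118). Rpl4, the most abundant and, at 1257 nt, the longest by coding region, was at 370.0, 365 and 398 CPM against 524, 452 and 476 CPM, and its -0.36 ± 0.12 did not pass (adjusted p = 0.0828). It passed under 2 of 10 alternatives (adjusted p down to 0.00878). Only 15 of the 78 lay above the median of their length bin.

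Of 74 nuclear genes of the respiratory chain and ATP synthase 1 rose and 52 fell, against 9.31% and 10.7% of all genes, with a median of -0.78. Cox8a, a small subunit of cytochrome oxidase, was at 15.9, 20.6 and 25.0 CPM in the pellet and at 46.5, 51.4 and 47.5 CPM in fraction 5/6 (-1.24 ± 0.18, adjusted p = 0.0138), and Uqcrq of complex III at 25.6, 28.3 and 37.8 CPM against 71.3, 69.7 and 72.6 CPM (-1.22 ± 0.16, adjusted p = 0.012). Only 12 of the 74 lay above the median of their bin. The mitochondrial genome's own genes, translated inside the organelle, were barely counted: 7 of 13 could be tested, none passed (edgeR), and mt-Co1, the highest, lay between 1.49 and 6.60 CPM in all 6 libraries.

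The replication-dependent histones, whose short mRNAs end in a stem-loop in place of a poly(A) tail, had the lowest median of all lists, -1.12, and 20 of 26 tested members fell and none rose (edgeR), against 10.7% and 9.31% of all genes. Their copies are nearly identical in sequence, so reads may be shared between them and single members are uncertain. H4c14 was at 22.5, 24.2 and 34.6 CPM in the pellet and 78.0, 62.3 and 68.1 CPM in fraction 5/6 (-1.36 ± 0.19, adjusted p = 0.0142), H4c4 fell by 1.29 and H3c6 by 1.22, and the longer linker histone H1f2 fell by 0.75 (adjusted p = 0.0234). For H4c14 the highest pellet library was below the lowest fraction 5/6 library. Mt1, a metal-binding protein of 183 nt of coding sequence, was at 5.14, 6.30 and 8.26 CPM against 20.4, 15.4 and 16.4 CPM (-1.40 ± 0.21, adjusted p = 0.0161). Of 20 selenoproteins 7 fell and none rose (edgeR), against the same shares of all genes, and 5 to 10 fell over the alternatives of scaling, filter and model. Among the falls were Selenow at -0.86 ± 0.12 and the glutathione peroxidase Gpx1 at -1.18 ± 0.20 (adjusted p = 0.0137 and 0.0195), and the longer Txnrd1, not called, was at -0.01 ± 0.12 (adjusted p = 0.976).

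Of 29 actin cytoskeleton genes 12 fell and 4 rose, and of 16 glycolytic enzymes 5 fell and 1 rose, against 10.7% and 9.31% of all genes. The falls ranged from 4 to 17 and from 1 to 9 over the alternatives of scaling, filter and model, and from 0 to 5 in both lists with a library or a replicate left out. The small monomer-binding Pfn1 was at 85.4, 87.7 and 109.9 CPM against 197, 159 and 170.1 CPM (-0.89 ± 0.14, adjusted p = 0.0176), whereas nonmuscle myosin Myh10, at 581, 409.7 and 468 CPM against 130.2, 103 and 126 CPM, rose by 2.02 ± 0.18 (adjusted p = 0.00566). The spine protein drebrin, Dbn1, rose by 1.44 ± 0.24 with a coding region of 1983 nt (adjusted p = 0.0179). Actb itself was at 7587, 5980.3 and 5969.6 CPM against 8115, 5783 and 6559 CPM and its groups overlapped (-0.07 ± 0.26, adjusted p = 0.878). The glycolytic falls included Gapdh with 103, 116 and 114 CPM against 148, 164 and 167 CPM (-0.52 ± 0.10, adjusted p = 0.0227) and Aldoa (-0.50 ± 0.12, adjusted p = 0.0379). The glycolytic gene that rose was Hk1, hexokinase, which has the longest coding region of the list, at 0.91 ± 0.16 (adjusted p = 0.0214).

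Tubulins, which carry many ribosomes and are among the most counted genes, gave no calls. None of 13 tubulins passed (edgeR), against 20.0% of all genes called in either direction, and the tubulin median was -0.05. It became 0.03 with the size factors of DESeq2 and -0.23 with library size alone, and up to 3 fell over the alternatives of scaling, filter and model. Tubb5 was at 7279, 9369.9 and 6056 CPM in the pellet and 7962, 5689.5 and 7062 CPM in fraction 5/6 (0.13 ± 0.28, adjusted p = 0.772), Tubb3, the neuronal form, had -0.02 ± 0.24 (adjusted p = 0.96) and Tuba1a -0.03 ± 0.19 (adjusted p = 0.937). The isotypes are similar in sequence and reads may be shared.

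Of 54 cell adhesion and guidance receptors 18 rose and none fell (edgeR), against 9.31% and 10.7% of all genes, with a median of 1.10, and 43 lay above the median of their length bin. L1cam, an adhesion molecule of axons (X chromosome, ENSMUSG00000031391), was at 119, 241 and 202 CPM in the pellet and at 17.97, 40.3 and 33.6 CPM in fraction 5/6 (2.61 ± 0.40, adjusted p = 0.0161). Its relative Chl1 was at 182, 304 and 262 CPM against 40.0, 59.7 and 56.5 CPM (2.26 ± 0.25, adjusted p = 0.00918). The giant cadherin Fat4 had 62.8, 65.0 and 57.6 CPM against 30.5, 32.0 and 30.0 CPM, an enrichment of 1.00 ± 0.09 that was below that of L1cam despite a coding region of 14943 nt against 3750 nt. Of 34 genes of the extracellular matrix 9 rose and none fell (edgeR), with a median of 1.18, the highest of the lists, and 28 lay above their bin median. Reln, which guides migrating cortical neurons, was at 71.7, 107 and 98.7 CPM against 16.4, 27.5 and 22.7 CPM (2.06 ± 0.24, adjusted p = 0.00997).

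**Figure D4:**
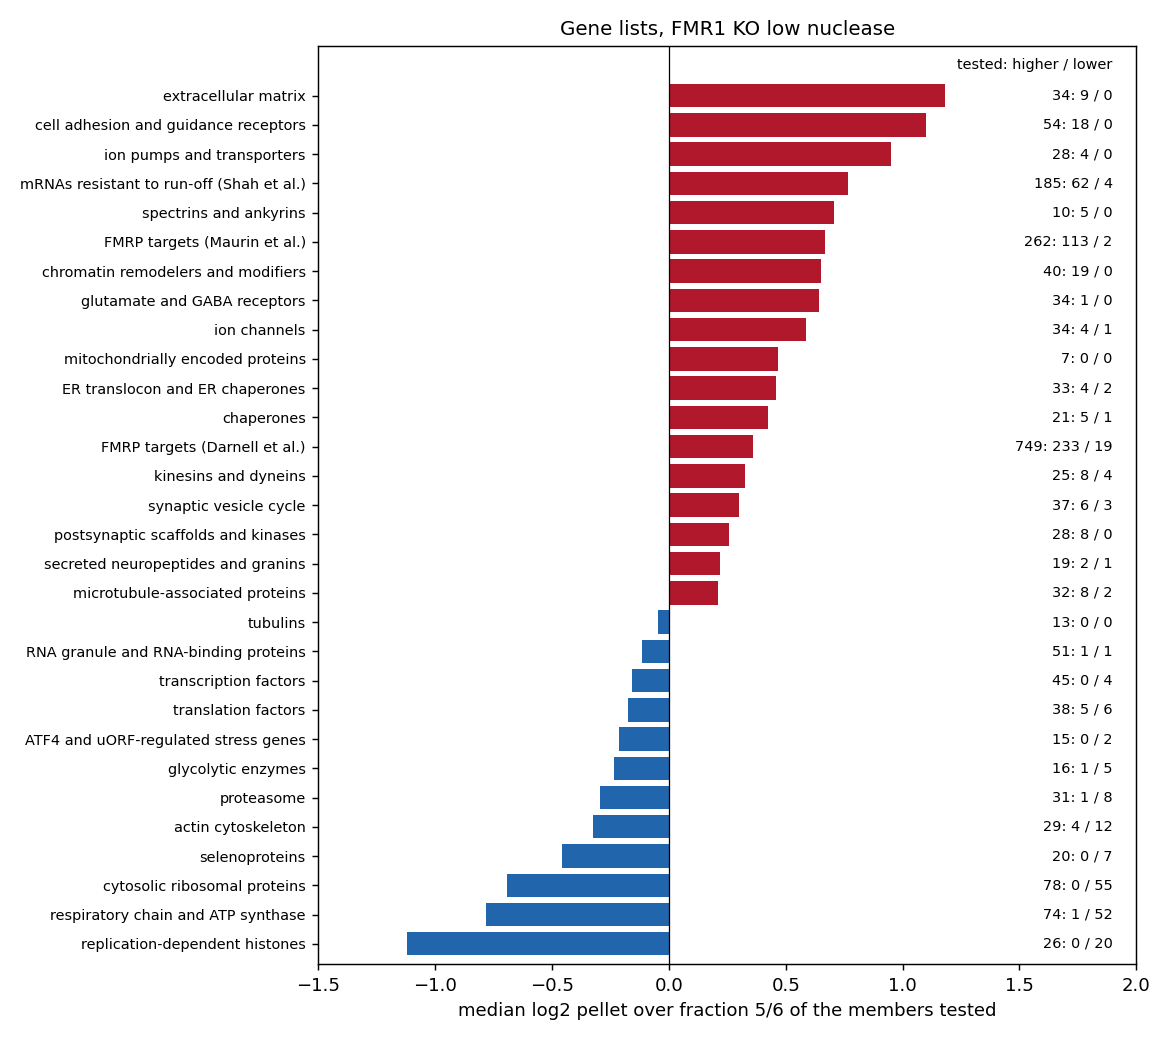
Median log2 pellet over fraction 5/6 of the members tested in each gene list, with the number tested and the numbers called higher and lower in the pellet at the right. The lists run from -1.12 for the replication-dependent histones to 1.18 for the extracellular matrix, and tubulins lie at -0.05, at 0.03 with the size factors of DESeq2 and at -0.23 with library size alone.

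The start of the coding region was scanned for the hydrophobic stretch that marks a signal peptide or membrane anchor, counted as the codons for Phe, Leu, Ile, Val, Met, Ala, Cys or Trp in any 10 neighbouring codons from codon 2 to codon 35. The windows with most such codons are shown for 4 genes of the secretory route and 2 cytosolic ones, 5′ to 3′ on the coding strand, from GENCODE M21 on GRCm38, with hydrophobic codons in capitals. All lie in coding sequence within 1 exon.
L1cam, codons 11 to 20, chrX:73869745-73869774, minus strand: CTCCTCCTCTGCagccccTGCCTGCTCATA
Chl1, codons 11 to 20, chr6:103642001-103642030, plus strand: CTGATCCTAagtCTAATTTTCCTCCTGTTA
Reln, codons 10 to 19, chr5:22344352-22344381, minus strand: GCTCTCGTCCTGGCCGTGCTGCTGCTGCTG
Hsp90b1, codons 3 to 12, chr10:86705320-86705349, minus strand: GTCCTGTGGGTGTTGggcCTCTGCTGTGTC
Map1b, codons 2 to 11, chr13:99516455-99516484, minus strand: GCGaccGTGGTGGTGgaaGCCaccgaaccg
Dync1h1, codons 18 to 27, chr12:110601656-110601685, plus strand: GCGGTGcagaatGTGGCGgacGTGGCGGTG

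L1cam, Chl1, Reln and Hsp90b1 had 8, 9, 10 and 9 hydrophobic codons of 10 in these windows, and Map1b and Dync1h1 had 5 and 7. Over 15429 genes with a window, the median log2 enrichment was -0.08 in the 2763 genes with 0 to 4 hydrophobic codons, -0.09 with 5 or 6, 0.01 with 7 or 8 and 0.22 in the 1583 genes with 9 or 10. The median coding lengths of these classes were close, 1482, 1380, 1329 and 1398 nt. Within the bin from 1000 nt the median went from -0.10 with 0 to 4 to 0.27 with 9 or 10, and within the bin from 2000 nt from 0.19 to 0.57. In the 2 longest bins the medians for 0 to 4 and for 9 or 10 were 0.59 and 0.86, then 1.02 and 1.00. The share of genes called did not follow: 6.13% of the genes with 9 or 10 such codons rose and 2.78% fell, against 9.31% and 10.7% of all genes tested.

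The mean log2 level of the 1583 genes with 9 or 10 hydrophobic codons was 2.01, 2.79 and 2.62 in the pellet replicates 1, 2 and 3 and 1.92, 2.54 and 2.27 in those of fraction 5/6. Replicate 1 was the lowest in both fractions. The genes with 5 or 6 such codons lay between 3.88 and 3.96 in all 6 libraries and did not show it. Among ion pumps and transporters, the calcium pump Atp2a2 of the ER was at 113, 318 and 226 CPM in the pellet and 36.9, 79.4 and 75.7 CPM in fraction 5/6 (1.77 ± 0.46, adjusted p = 0.0459), and Atp2b1, a calcium pump of the plasma membrane, at 83.2, 206 and 157 CPM against 28.7, 61.5 and 55.9 CPM (1.61 ± 0.42, adjusted p = 0.0466). Pellet replicate 1 of both genes was above all fraction 5/6 libraries even so. Each of these calls was lost under 2 of 10 alternatives (adjusted p up to 0.0586 for Atp2a2 and 0.0640 for Atp2b1). Each was also lost in 7 of 9 fits with a library or a replicate left out. Of 28 pumps and transporters 4 rose and none fell (edgeR), a number of rises near the 9.31% of all genes, while 26 had a positive log2 enrichment and 25 lay above their bin median. The number of rises in this list went from 1 to 20 over the alternatives of scaling, filter and model and from 0 to 8 with a library or a replicate left out, with 8 when both replicates 1 were left out.

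**Figure D5:**
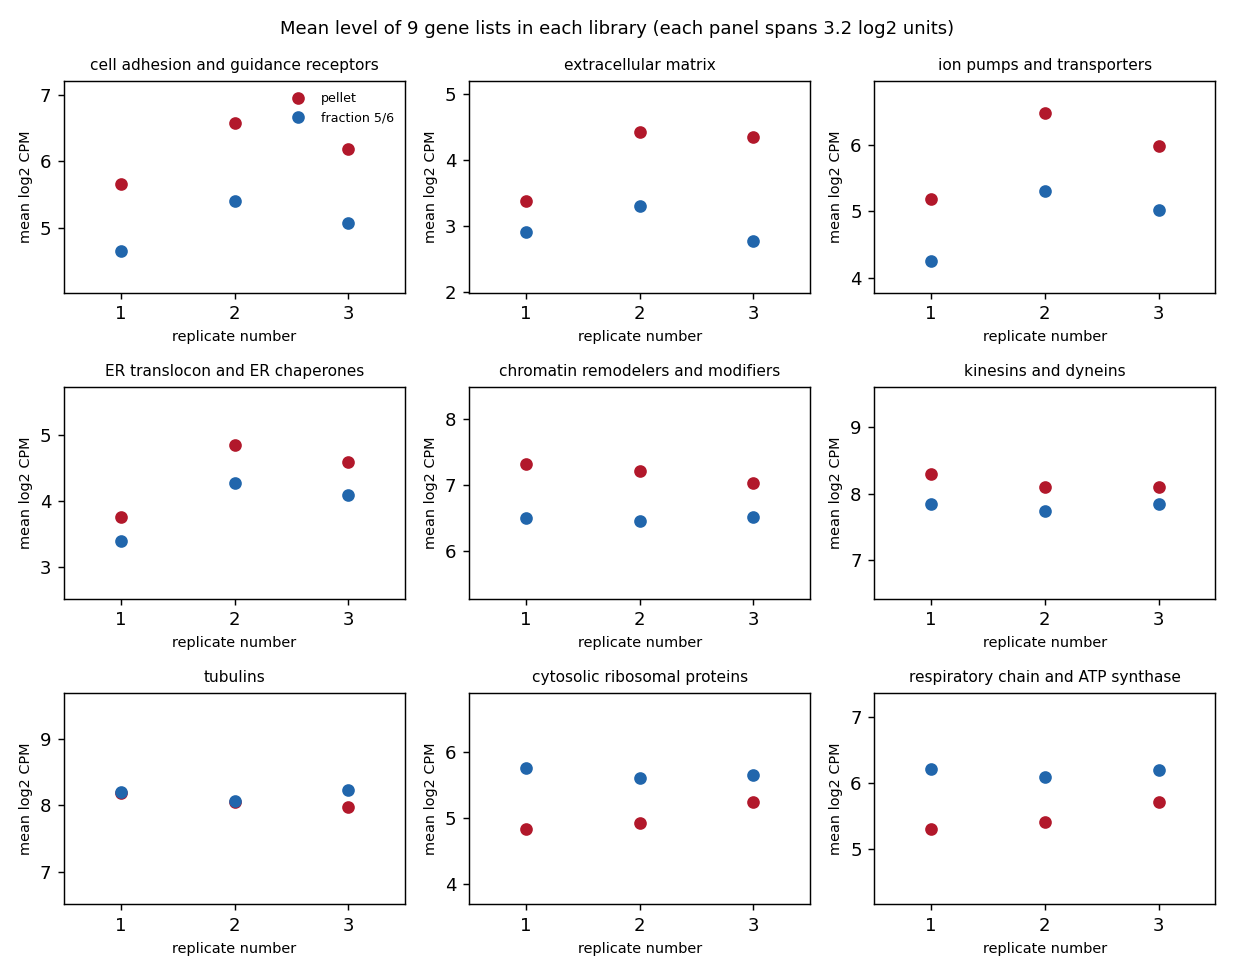
Mean log2 CPM of the tested members of 9 gene lists in each library, by replicate number, with each panel spanning the same range. In the 3 membrane and matrix lists and the ER list of the upper rows, pellet replicate 1 is the lowest pellet library, while the ribosomal protein and respiratory chain lists lie lower in the pellet at each number.

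Of 33 genes of the ER translocon and ER chaperones 4 rose and 2 fell, against 9.31% and 10.7% of all genes, and 27 lay above their bin median. The ER chaperone Hsp90b1 was at 63.1, 136 and 109 CPM against 14.5, 29.4 and 27.2 CPM (2.12 ± 0.38, adjusted p = 0.0218) and Hyou1 had 1.88 ± 0.42 (adjusted p = 0.0329). Rpn1, ribophorin, a marker of the rough ER, was at 26.5, 65.3 and 48.9 CPM against 11.1, 23.9 and 23.1 CPM, and its 1.27 ± 0.42 did not pass although the groups did not overlap (adjusted p = 0.085). That call changed with the model: Rpn1 passed under 3 of 10 alternatives, with adjusted p from 0.00431 to 0.13. Sec61b, a subunit of the translocon with 288 nt of coding sequence, went the other way, 5.77, 5.63 and 6.90 CPM against 15.0, 12.9 and 12.8 CPM (-1.15 ± 0.14, adjusted p = 0.01). Non-overlapping libraries, in either direction, were found in 17.7% of all genes tested with the pellet above and 26.3% with the pellet below. The rises in these lists moved widely over the alternatives of scaling, filter and model, from 3 to 19 for the ER list, 12 to 45 for adhesion and guidance receptors and 6 to 24 for the extracellular matrix.

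Of 34 ion channels 4 rose and 1 fell, among them the large calcium release channels Ryr2 (85.4, 113 and 95.6 CPM against 30.4, 41.2 and 38.8 CPM, 1.41 ± 0.16, adjusted p = 0.00951) and Itpr1 (1.14 ± 0.14, adjusted p = 0.0103). Of 34 glutamate and GABA receptor genes 1 rose and none fell (edgeR), a smaller share than the 9.31% of all genes, with a median of 0.64. Over the alternatives 0 to 19 of these receptors and 4 to 18 of the channels rose. That gene was Gria2, a subunit of AMPA receptors, at 66.9, 156 and 122 CPM against 28.8, 53.5 and 46.3 CPM (1.42 ± 0.37, adjusted p = 0.0459), whose call was lost under 2 of 10 alternatives (adjusted p up to 0.068). Gria3, at 1.38 ± 0.37, missed the threshold (adjusted p = 0.0503) but passed under 5 of 10 alternatives (adjusted p from 0.000458 to 0.0777). Of 19 neuropeptide and granin genes 2 rose and 1 fell, with a median of 0.22 and 13 above their bin median: the prohormone convertase Pcsk1 and the granin Chgb rose by 1.78 ± 0.36 and 1.51 ± 0.40 (adjusted p = 0.0261 and 0.0483). The call of Chgb was lost under 3 of 10 alternatives (adjusted p up to 0.0684), over which 1 to 7 of the list rose and 1 to 4 fell. Npy, with 291 nt, was at 5.22, 6.86 and 8.69 CPM against 11.2, 13.8 and 13.7 CPM (-0.90 ± 0.21, adjusted p = 0.0366).

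Of 51 genes of RNA granule and RNA-binding proteins 1 rose and 1 fell, below the 9.31% and 10.7% of all genes, and over the alternatives 0 to 3 rose and 0 to 19 fell. Ybx1, which packages mRNA, was at 104, 91.6 and 86.6 CPM in the pellet against 159, 132 and 128 CPM (-0.57 ± 0.13, adjusted p = 0.0328), and the helicase Mov10 rose by 0.55 ± 0.15 (adjusted p = 0.0483). The call of Mov10 was lost under 4 of 10 alternatives of scaling, filter and model (adjusted p up to 0.14) and in all 9 fits with a library or a replicate left out. The FMRP relatives Fxr1 and Fxr2 had -0.09 ± 0.12 and -0.31 ± 0.11 (adjusted p = 0.594 and 0.0942), and under the 10 alternatives Fxr1 passed in 1 (adjusted p = 0.0451) and Fxr2 in 3 (adjusted p down to 0.00702). Stau2 and Upf1, which act in the transport and stalling of neuronal mRNAs, had -0.12 ± 0.11 and 0.35 ± 0.17 (adjusted p = 0.473 and 0.201), values of their mRNAs' RPFs and not of the proteins. Stau2 passed under 1 of the 10 alternatives (adjusted p = 0.0272). Of 45 transcription factors none rose and 4 fell (edgeR), up to 16 fell over the alternatives, and 13 had all pellet libraries below fraction 5/6, against 26.3% of all genes. The falls included Neurod2, which drives neuronal differentiation, at 66.9, 55.1 and 65.0 CPM against 102.5, 83.0 and 93.5 CPM (-0.58 ± 0.12, adjusted p = 0.0293). Atf4, whose translation is held back by upstream reading frames, fell by 0.60 (adjusted p = 0.0265) and was 1 of 2 falls among 15 ATF4 and uORF-regulated stress genes.

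Lists of mRNAs tied to stalling and to FMRP in other work lay on the pellet side in these FMRP-less brains. Of 185 mRNAs whose ribosomes resist run-off in the list of Shah et al., 62 rose and 4 fell, with a median of 0.77. Of 262 FMRP targets in the list of Maurin et al., 113 rose and 2 fell (median 0.67), and of 749 in that of Darnell et al., 233 rose and 19 fell (median 0.36), against 9.31% and 10.7% of all genes tested. Over the alternatives the rises and falls ranged from 49 to 111 and 0 to 12 in the list of Shah et al., from 98 to 152 and 1 to 11 in that of Maurin et al., and from 196 to 326 and 7 to 92 in that of Darnell et al., whose median was then as low as 0.17. The median coding regions of these lists were 2406, 4282.5 and 3114 nt, against 1380 nt for all genes tested. Set against the median of their own length bin, 142 of 185, 165 of 262 and 389 of 749 members lay above it. Map1a was among the 3 members with the lowest p in each of these lists, Dync1h1 and Pclo in the run-off list and Mycbp2 in both FMRP target lists.

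Of 46 tested markers of brain cell types and blood 11 were called, 7 of 40 without blood, against 20.0% of all genes. In the level of a marker in these whole-brain libraries, fewer cells of a type and less RNA per cell cannot be told apart. The calls set the pellet against fraction 5/6 of whole-brain homogenate and do not compare cell numbers. Of 8 neuronal markers none was called (edgeR), and their summed level was 7435 to 9000.2 CPM in the pellet and 7647 to 9386 CPM in fraction 5/6. Among 8 markers of astrocytes and radial glia the long Nes, nestin, rose (34.4, 18.1 and 21.3 CPM against 11.7, 7.91 and 8.44 CPM, 1.40 ± 0.29, adjusted p = 0.0277) and the short Fabp7 fell (369, 312 and 432 CPM against 744, 521 and 586 CPM, -0.73 ± 0.20, adjusted p = 0.0495). The call of Fabp7 was lost under 2 of 10 alternatives (adjusted p up to 0.0881) and in all 9 fits with a library or a replicate left out. Of 8 markers of the oligodendrocyte lineage 3 fell and none rose, and Olig1 fell by 0.73 (adjusted p = 0.0123). Of 8 microglial markers, with a median of -0.09, 1 rose and 1 fell. The receptor P2ry12, a membrane protein, rose, with 13.95, 14.8 and 14.6 CPM against 6.73, 7.43 and 8.34 CPM (0.94 ± 0.12, adjusted p = 0.0114), and the calcium-binding Aif1 fell, with 1.34, 1.42 and 1.33 CPM against 2.55, 2.16 and 2.31 CPM (-0.78 ± 0.16, adjusted p = 0.0284). Markers of endothelium, 8 tested, summed to 11.9 to 46.3 CPM in the pellet and 9.14 to 29.3 CPM in fraction 5/6, and none was called (edgeR). Of 6 tested blood markers 4 fell, all globins, and the list summed to 18.1 to 23.4 CPM against 34.4 to 42.4 CPM, with Hbb-bt at 2.09, 2.35 and 2.44 CPM against 5.48, 5.63 and 4.95 CPM (-1.22 ± 0.15, adjusted p = 0.0101). The globin copies are nearly identical and reads may be shared.

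Some of the largest fold changes belonged to genes whose replicates disagreed. In 387 of the 15580 genes, 2.48%, the highest library of a fraction had at least 10 CPM and at least 10 times the lowest. Ppp1r13l, which binds p53 family proteins, was at 339, 204 and 4.66 CPM in the pellet and at 3.08, 3.16 and 2.86 CPM in fraction 5/6 (5.91 ± 1.44, adjusted p = 0.0397), so its rise came from 2 of 3 pellet libraries. Ascl2, a transcription factor of other tissues, was at 0.265, 173 and 192 CPM in fraction 5/6 and at most 0.187 CPM in the pellet, a fall in 2 of 3 libraries (-9.73 ± 2.38, adjusted p = 0.0397). The call of Ppp1r13l was lost under 2 of 10 alternatives (adjusted p up to 0.0981). That of Ascl2 was lost under 2 of the 9 that tested it (adjusted p up to 0.0938). Prkag3, a muscle subunit of AMP-activated kinase, had 9, 1 and 13 counts in the pellet against 2178, 4006 and 1675 counts in fraction 5/6, with all libraries apart (-7.57 ± 0.60, adjusted p = 0.00444). Il1a, a cytokine, was at 0.209, 0.261 and 1.42 CPM against 51.5, 126 and 88.1 CPM (-7.06 ± 0.88, adjusted p = 0.0113). None of Prkag3, Il1a and Ascl2 was called in the WT low nuclease comparison, and none passed the filter on low counts in the FMR1 KO standard nuclease comparison. Kcnma1, a potassium channel, had 1631 CPM in pellet replicate 3 and 21.1 to 81.4 CPM in the other libraries (4.16 ± 1.56, adjusted p = 0.112), and Tenm2, an adhesion receptor, had 94.0 CPM in fraction 5/6 replicate 2 and 1428 to 1912 CPM in the others.

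The same contrast was set beside that of FMR1 KO in the standard nuclease preparation, which shares no library with it. There 13333 genes were tested, with 10.1% higher and 1.39% lower in the pellet. Of the 1451 genes that rose in the low nuclease preparation 875 also rose there, 60.3% of this list and 65.2% of the other, and of the 1665 that fell 70 fell there, 4.2% of this list and 37.8% of the other. The sign was the same there for 1377 of 1409 rises (97.7%) and 1503 of 1632 falls (92.1%) tested in both, and 4 of the falls were called in the opposite direction. The medians of cytosolic ribosomal proteins were -0.69 here and -0.45 there, with 55 and 3 falls, and those of cell adhesion and guidance receptors were 1.10 and 1.28, with 18 and 35 rises. The differences in counts between the preparations were not themselves tested. Gene by gene, the interaction of preparation and fraction passed for 1 of 15111 genes, 0.00662% (edgeR, 1266 genes or 8.38% at an unadjusted p under 0.05). That gene was Cers2, a ceramide synthase, on the CPM scale of the joint fit at 2.26, 5.49 and 3.99 CPM in the low nuclease pellet and 1.70, 3.57 and 3.11 CPM in low nuclease fraction 5/6, against 434, 542 and 256 CPM and 0.829, 1.59 and 2.84 CPM in the standard preparation. None of the members of the lists above was called in that interaction.

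The contrast was also set beside that of WT in the low nuclease preparation, which shares no library with it. There 14.3% of 15586 genes rose and 8.58% fell. Of the 1451 rises of FMR1 KO 1052 rose in WT too, 72.5% of this list and 47.2% of the WT list, and of the 1665 falls 497 fell, 29.8% and 37.1%. The sign was the same in WT for 1421 of 1449 rises (98.1%) and 1630 of 1664 falls (98.0%) tested in both, and 3 rises and 1 fall were called in the opposite direction. For neither comparison is the agreement of sign over all genes given here. Log2 enrichment followed coding length there too (Spearman's rho 0.57 in the standard preparation and 0.48 in WT). Cell adhesion and guidance receptors had 18 rises in FMR1 KO and 45 in WT, with medians of 1.10 and 1.49, and ion pumps and transporters had 4 and 24, with medians of 0.95 and 1.39. The interaction of genotype and fraction passed for 3 of 15929 genes, 0.0188% (edgeR, 1351 genes or 8.48% at an unadjusted p under 0.05), and for 0 of these 54 receptors and 28 pumps (1 of each at an unadjusted p under 0.05). The genes were Fblim1, Adam12 and Spen, and 1 member of the FMRP target list of Darnell et al. was among them. On the CPM scale of the joint fit Spen, a transcriptional corepressor, had 128, 98.8 and 97.2 CPM in the FMR1 KO pellet and 53.4, 75.3 and 54.9 CPM in FMR1 KO fraction 5/6, against 116, 127 and 96.4 CPM and 369, 271 and 267 CPM in WT, so the groups stood apart in fraction 5/6 and overlapped in the pellet.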

How the data were processed

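RPFs of the pellet and of fraction 5/6 were compared in FMR1 KO mice, 3 low nuclease libraries each. The authors trimmed reads with Cutadapt 2.10, filtered out reads of rRNA and other ncRNA (Bowtie2 2.3.5), aligned to GRCm38 with STAR 2.7.8a, removed duplicates marked by Picard with SAMtools 1.19.2 and counted reads per gene with featureCounts 2.2.0; the deposited values are raw whole-number counts, as the submitters' processing notes and the study's methods describe. Here Cdk8 and genes of a non-coding biotype (GENCODE M21) were left out. edgeR 4.0.16 in R 4.3.3 was used with filterByExpr, TMM scaling and its quasi-likelihood test, and p-values were adjusted by Benjamini-Hochberg across every gene tested, with a threshold of 0.05. Interactions were fitted on 12 libraries. SE is the log2 change divided by the root of the F statistic. CPM uses the scaled library size, recomputed for each fit. Coding lengths came from the table's transcript or, failing that, the gene in GENCODE M21. Length differences per library used log2(CPM + 0.5). P-values measure the spread between these preparations. Total counts per library, 27887425 to 62310787, limit genes of low count. On simulated data the fit recovered the size of known changes, but missed most of the smaller ones, so a gene not called is not shown to be unchanged.

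Genes named were the 12 largest rises and 12 largest falls with libraries apart and at least 10 CPM on average, up to 3 members of each list by p and the most abundant one, Fmr1, Cdk8, Fxr1, Fxr2, Stau2, Upf1, Rpn1 and tubulins, the 5 lowest p of each interaction and the 10 most counted genes, of which those that show a group best were printed. Members and lists were chosen with earlier results of these data known. Alternatives were DESeq2 1.42.0, its size factors, library size alone, other filters, Cdk8 kept, all genes, the replicate block, all 12 low nuclease RPF libraries, a robust prior (added after seeing the data) and leaving out replicates. The peak files, from the standard preparation, and the RNA-seq libraries were not used here. Figures were drawn with matplotlib 3.10.9. Some named genes are not reported here.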

Additional observations from a re-analysis of the deposited data

Results flagged for a closer look

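These genes are given because a test found that their pellet against fraction 5/6 difference was not the same in 2 sets of libraries (edgeR quasi-likelihood test of the interaction). The 3 replicates of each group were 1 pool from reverse transcription on. A difference of genotype or preparation and one of a single pool therefore cannot be told apart. For Fblim1, an adaptor of the actin cytoskeleton, the log2 enrichment in FMR1 KO minus that in WT was 4.15 ± 0.33 (SE, adjusted p = 0.00249). Its level was 10.1, 8.90 and 8.62 CPM in the FMR1 KO pellet and 15.9, 11.05 and 9.82 CPM in FMR1 KO fraction 5/6, and 11.6, 12.6 and 8.57 CPM in the WT pellet, but 329, 227 and 220 CPM in WT fraction 5/6. For Adam12, a membrane metalloprotease, the difference was -3.36 ± 0.39 (adjusted p = 0.0454), with 45.5, 44.9 and 48.9 CPM in the WT pellet and 2.19 to 6.10 CPM in the other 9 libraries. For Spen the difference was 2.24 ± 0.27 (adjusted p = 0.0467), with WT fraction 5/6 standing apart from the other groups. For Cers2 the enrichment in the low nuclease preparation of FMR1 KO minus that in the standard one was -7.43 ± 0.71 (adjusted p = 0.0119), with only the standard nuclease pellet above 6 CPM.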

How the results depend on the processing

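Each of the 3116 calls that an alternative could test kept its direction in that alternative, but the number of calls did not hold. The alternatives share libraries with the main fit, so the kept direction was largely set in advance. Rises, 1451 in the report, were 2178 with DESeq2 and 2475 with the replicate block. Falls, 1665 in the report, were 850 with the size factors of DESeq2 in edgeR and 4238 by library size alone, and rises made up 46.6%, 60.5% and 21.4% of the calls under TMM, these size factors and library size. With a library or a replicate number left out, rises ranged from 0 to 1105 and falls from 0 to 967. Without fraction 5/6 replicate 1, 2 or 3 alone there were 381, 396 and 310 rises, and without pellet replicate 1, 2 or 3 alone 1105, 504 and 844. The falls in the same order were 61, 94 and 26, then 967, 127 and 931. The replicate numbers were not taken to pair the samples. Deviations from the group means correlated at 0.36, 0.15 and 0.06 within the numbers, and pellet replicate 3 correlated best with fraction 5/6 replicate 2 (0.17). The 0.36 of replicate 1 was the highest of all pairs. Ion pumps and transporters had the same order of replicates in both fractions. Their mean log2 CPM was 5.19, 6.49 and 5.98 in the pellet and 4.26, 5.30 and 5.03 in fraction 5/6. Variation shared within a number stays in the error of the main fit, and the replicate block gave 2475 rises and 2125 falls. The genotype interaction had 3 genes in the report, 1 by library size alone, 5 with the replicate block and 4 to 9 with a replicate left out. The preparation interaction had 1 gene, also by library size and with the block, and 2 to 15 with a replicate left out. A robust prior, chosen after seeing the data, gave 1455 rises and 1666 falls. The biological coefficient of variation was 35.1%, and genes of low count are limited by depth.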
